A study of Mus musculus with 90 samples.

Results

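The prostaglandin genes described here, 10 of the 20414 genes in the expression table, were found by their Entrez Gene identifiers and followed over 90 RNA-seq libraries. They are the cyclooxygenases Ptgs1 and Ptgs2, the synthases Ptges, Ptgds and Ptgis, the receptors Ptgfr, Ptger2, Ptger3 and Ptger4, and the catabolic enzyme Hpgd. The libraries came from 15 tissues of C57BL/6 female mice that were 10 weeks old according to the labels, taken in estrus or in diestrus as told from vaginal smears, with 3 mice per phase and 1 library per tissue and mouse. The labels name no transgene or treatment. The 4 tissues looked at most closely were uterus, ovary, aorta and vein, and the labels do not say which vein was taken.

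Prostaglandins are short-lived lipid mediators. Phospholipases release arachidonic acid from membranes, the cyclooxygenases turn it into prostaglandin H2, and terminal synthases convert this into prostaglandin E2, D2, I2 (prostacyclin) or F2-alpha, which act on receptors of the cell that made them or of its neighbours. In the reproductive tract they are known for their part in follicle rupture, in regression of the corpus luteum and in uterine contraction and implantation, and in vessels prostacyclin relaxes smooth muscle and restrains platelets.

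Values are FPKM as the authors deposited them, a count of fragments divided by transcript length and by the total mapped in that library, so that levels of different genes can be set side by side. Read counts were not used here and the depth of a library is therefore known only in relative terms. In 89 libraries the relative depth, read from the lowest values of 1144 short genes, lay between 0.547 and 1.51 times the median. The library of brown adipose tissue (BAT) estrus replicate 3 lay at 0.0089 times the median and listed 7 of the 10 genes at 0. The markers of the labelled tissues were in place: luteal cell genes were highest in ovary, uterine epithelium and stroma genes in uterus, smooth muscle genes in aorta and endothelial genes in vein, with aorta and vein also holding adipocyte genes and vein holding neuron genes (summed FPKM of 310 to 660). Some libraries stood apart in such markers. Aorta estrus replicate 1 had a summed smooth muscle FPKM of 16275 against 1794 to 2646 in the other 5 aortas. Vein held 1574 to 4747, so that the lead of aorta in smooth muscle genes rested on this library. Uterus estrus replicate 3 and ovary estrus replicate 3 had oviduct epithelium sums of 2801 and 1639, uterus estrus replicate 1 had a macrophage sum of 183, and duodenum estrus replicate 1 had a gastric epithelium sum of 7562. Uterus estrus replicates 1 and 3 were also well below the other uteri in uterine epithelium and stroma genes.

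The start sites of 3 members are shown, those of both cyclooxygenases, which catalyse the first committed step of the pathway, and that of Ptgfr, which had the largest difference between uterus and ovary. Each line gives the 250 bases before the RefSeq transcription start, 5′ to 3′ on the gene's strand, in the GRCm38.p6 build. Capitals mark the letters AGGTCA, a short site bound by many nuclear receptors, on either strand.
Ptgs1 (chr2:36230176-36230425, plus strand): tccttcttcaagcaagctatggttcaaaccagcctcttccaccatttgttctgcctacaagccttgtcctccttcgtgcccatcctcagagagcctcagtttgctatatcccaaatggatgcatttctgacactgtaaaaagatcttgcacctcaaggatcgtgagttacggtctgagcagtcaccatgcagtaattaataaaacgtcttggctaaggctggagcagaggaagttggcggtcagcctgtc
Ptgs2 (chr1:150099781-150100030, plus strand): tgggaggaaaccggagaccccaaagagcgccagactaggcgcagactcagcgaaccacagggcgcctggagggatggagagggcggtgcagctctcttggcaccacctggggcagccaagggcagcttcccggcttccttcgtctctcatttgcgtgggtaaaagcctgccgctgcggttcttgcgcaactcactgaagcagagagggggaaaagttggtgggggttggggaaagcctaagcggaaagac
Ptgfr (chr3:151837529-151837778, minus strand): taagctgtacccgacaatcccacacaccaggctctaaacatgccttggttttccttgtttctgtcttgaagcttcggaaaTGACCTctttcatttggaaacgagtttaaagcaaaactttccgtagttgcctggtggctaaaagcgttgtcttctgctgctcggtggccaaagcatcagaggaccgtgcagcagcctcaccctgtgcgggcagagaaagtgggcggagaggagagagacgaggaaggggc
Promoters of 9 members were on hand and were searched on both strands for 6 motifs, namely the TATA box (TATAAA), the E-box (CACGTG), the cyclic AMP response element (TGACGTCA), the AP-1 site (TGANTCA), the full palindromic estrogen response element, and AGGTCA, which lies in part within the estrogen response element. Bases outside these windows, those after the start included, were not searched. The windows held 2 matches. One is AGGTCA on the minus strand of the Ptgfr window, at positions -170 to -165 from the start, printed above as its complement, and the other is the AP-1 site of Ptgds at positions -35 to -29. Of 32851 promoter windows of the same length, 14.02% held AGGTCA, 12.4% the TATA box, 6.75% the AP-1 site, 6.02% the E-box, 1.55% the cyclic AMP response element and 0.0639% the estrogen response element. The share of G and C was 48.0% in the Ptgs1 window and 61.6% in the Ptgs2 window.

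Across the 15 tissues, the members divided into genes found in most tissues and genes found in few. Ptgs1 and Hpgd had a mean of at least 1 FPKM in all 15 tissues, Ptges and Ptgds in 13, Ptgis and Ptger4 in 12, Ptger3 in 8, Ptgfr in 6, and Ptgs2 and Ptger2 in 3. For each member the tissues were put in order of their mean FPKM over the 6 libraries, and neighbours in the order were compared by an exact permutation test (two-sided, 6 libraries against 6, smallest possible p 0.00216) with Benjamini-Hochberg adjustment over the 140 neighbouring pairs. Only 14 of the 140 pairs passed at 0.05 after adjustment. Most single steps in the orders below therefore did not pass. The orders were made from the same values as the test, and only neighbours, whose means lie closest, were compared. Tissues further apart in an order were not compared by this test.

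**Figure D1:**
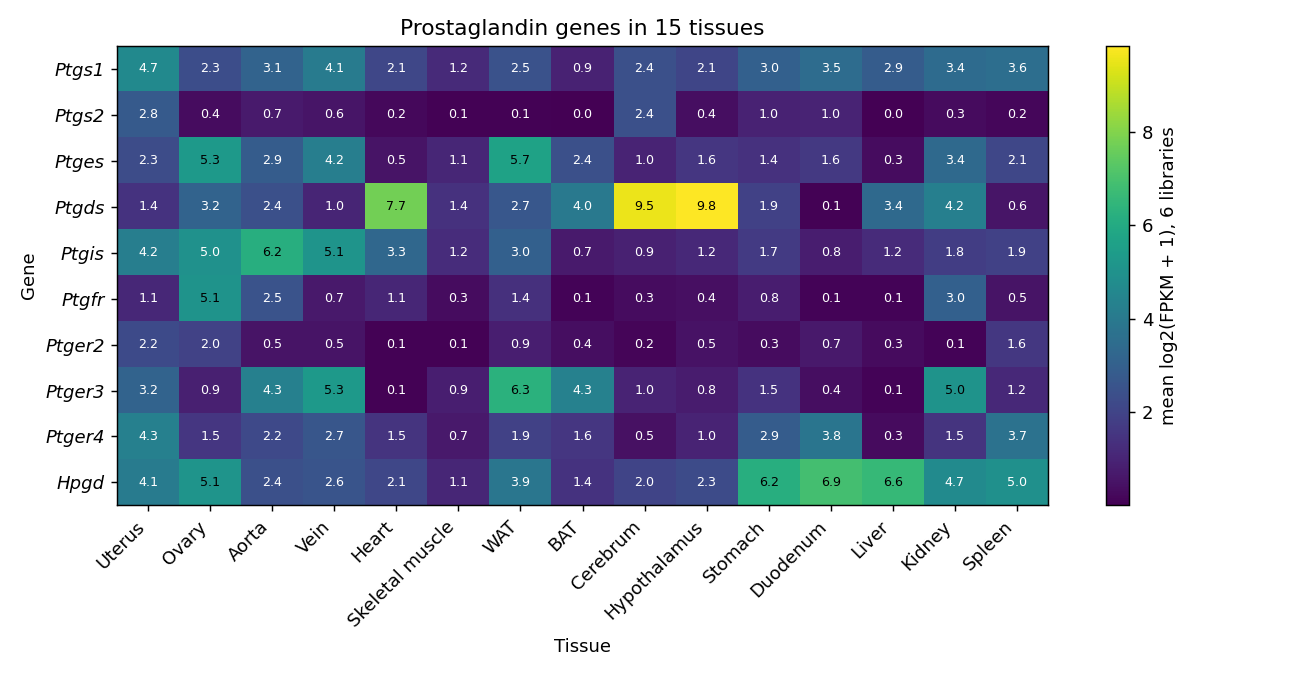
Mean log2(FPKM + 1) over 6 libraries (colour and number in each cell) of the 10 prostaglandin genes (rows) in 15 tissues (columns). Ptgds in hypothalamus and cerebrum has the highest means of the plot, and Ptgs2 and Ptger2 are low outside a few tissues.

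Ptgs1, the cyclooxygenase usually described as constitutive, was highest in uterus, at 31.7 ± 24.0 FPKM (SD, n = 6), followed by vein at 16.4 ± 4.11 and spleen at 11.0 ± 2.97. Uterus and vein did not differ beyond their spread (adjusted p = 0.588, exact permutation test), and the one step that passed was that from hypothalamus to skeletal muscle (adjusted p = 0.0253). Ovary held 4.24 ± 1.71 FPKM (SD, n = 6), rank 11 of the 15 tissues. Ptgs2, the inducible cyclooxygenase, was also highest in uterus, at 7.99 ± 5.59 FPKM (SD, n = 6), and next in cerebrum at 4.40 ± 1.21. Its values in cerebrum stood above those of duodenum, the next tissue, at 1.03 ± 0.534 (adjusted p = 0.0253, exact permutation test, n = 6 and 6), and ovary averaged 0.307 FPKM. Both isoforms had uterus at the top of the order.

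The terminal synthases each had another leading tissue. Ptges, which makes prostaglandin E2, was highest in white adipose tissue (WAT) at 51.6 ± 14.5 FPKM (SD, n = 6), in ovary at 38.9 ± 6.77 and in vein at 20.2 ± 10.6, with no step among these that passed the test. Ptgds, the lipocalin-type prostaglandin D2 synthase, known as a product of leptomeninges and choroid plexus, reached 1091 ± 590 FPKM (SD, n = 6) in hypothalamus, 781 ± 292 in cerebrum and 216 ± 50.8 in heart. The steps from cerebrum to heart and from heart to kidney, at 18.5 ± 5.51, both passed (adjusted p = 0.0253 each, exact permutation test). Its lowest value, in duodenum, averaged 0.0433 FPKM. Ptgds varied widely within hypothalamus, from 248 to 1896 FPKM. Ptgis, the prostacyclin synthase, was highest in aorta, where 5 libraries held 39.1 to 61.9 FPKM and estrus replicate 1 held 381. Vein (34.9 ± 12.7), ovary (31.3 ± 4.97) and uterus (21.7 ± 18.3) followed, and none of the 14 steps in the order of Ptgis passed the test.

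Among the receptors, Ptgfr, the receptor for prostaglandin F2-alpha that mediates luteolysis in rodents, was highest in ovary, at 34.5 ± 12.5 FPKM (SD, n = 6). Kidney came next at 7.20 ± 1.74 (adjusted p = 0.0253 for the step, exact permutation test), then aorta at 5.19 ± 2.37, and uterus held 1.21 ± 0.473. The 3 receptors for prostaglandin E2 had distinct orders. Ptger2, which raises cyclic AMP and is needed for cumulus expansion, was low throughout, with 4.79 ± 4.18 FPKM in uterus, 3.04 ± 1.17 in ovary and 2.07 ± 0.333 in spleen, and the step down from spleen to WAT passed (adjusted p = 0.0253). Ptger3, which lowers cyclic AMP, was highest in WAT at 79.7 ± 21.5 FPKM (SD, n = 6), then in vein at 41.8 ± 17.3, kidney at 32.4 ± 4.86, aorta at 22.7 ± 12.6 and BAT at 19.8 ± 5.61. Ptger4, the other receptor that raises cyclic AMP, held 20.8 ± 10.7 FPKM in uterus, 14.1 ± 5.76 in duodenum and 12.3 ± 0.506 in spleen, and only the step from spleen to stomach passed among the first 10 of its order. For Ptger4, 15.3% of the exonic bases overlap a pseudogene on the opposite strand, and the library kit does not mark strand.

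Hpgd, which inactivates prostaglandins by oxidising the 15-hydroxyl group, was highest in digestive organs, at 132 ± 69.8 FPKM (SD, n = 6) in duodenum, 96.2 ± 7.29 in liver and 79.7 ± 42.0 in stomach. These 3 did not differ from their neighbours beyond the spread (adjusted p = 0.635 for duodenum and liver, exact permutation test). The step that passed was from WAT, at 15.1 ± 7.90, to vein at 5.17 ± 1.85 (adjusted p = 0.0433).

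The likeness of each pattern was measured as Pearson's r of mean log2(FPKM + 1) over the 15 tissues among 15225 other genes, as a description only, since the tissues came from the same mice and aorta and vein share adipose markers. Ptger3 was most like Car5b (r = 0.976), Glb1l2 and Sycp3, and Ptgis most like Gxylt2 (r = 0.942), Rcn3 and Entpd1. Ptger4 was nearest to Casp4 (r = 0.930), Vasp and Prdm1, Hpgd to Dnajb11 (r = 0.928), Rab43 and Nat2, and Ptgds to Ephb1 (r = 0.921), Pfn4 and Bdnf. The next were Ptgfr with Zbed3 (r = 0.893), Syne2 and Abcb1b, Ptges with Babam2 (r = 0.892), Lrmda and Itih5, and Ptgs2 with Moxd1 (r = 0.873), Npas2 and Serpina9. Ptgs1 had the lowest leading value, with Adgrg6 (r = 0.815), Cd9 and Gm42267. Ptger2 had a mean under 1 FPKM over the 90 libraries and was left out. Between members, the highest values were those of Ptgs1 with Ptger4 (r = 0.699), Ptges with Ptger3 (r = 0.696) and Ptges with Ptgfr (r = 0.637), and the lowest that of Ptgds with Ptger4 (r = -0.64).

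Uterus and ovary were compared to ask which arm of the pathway each organ carries. Both cyclooxygenases and the receptors Ptger3 and Ptger4 were higher in uterus, while Ptges, Ptgds and Ptgfr were higher in ovary. Altogether 7 of the 10 members were called (limma on log2(FPKM + 1) over the 12 libraries with phase as a covariate, a limit of 1 on the size of the log2 difference and of 0.05 on the p adjusted over 14035 genes), where 19.0% of all genes tested were called, 8.66% as higher in uterus and 10.4% as higher in ovary. Uterus estrus replicates 1 and 3 were low in uterine markers. These 7 members were still called with either of them left out, and leaving out both was not tested. As everywhere in these bulk samples, more cells of a type and more RNA per cell cannot be told apart.

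Ptgs1 in uterus was 7.20, 30.6 and 11.9 FPKM in estrus, with 47.4, 71.0 and 22.0 in diestrus, against 4.20, 4.33, 7.46 and 3.47, 2.54, 3.41 in ovary. Apart from uterus estrus replicate 1, every uterus lay above every ovary (log2 difference 2.33, SE 0.45, adjusted p = 0.00148 from limma). Ptgs2 in uterus was 12.8, 5.66 and 14.1 FPKM in estrus, with 3.19, 11.6 and 0.61 in diestrus, and in ovary 0.12, 0.53, 0.83 and 0.22, 0.03, 0.11. Uterus diestrus replicate 2 was as high as the estrus libraries and diestrus replicate 3 within the range of the ovaries, yet uterus was higher on the whole (log2 difference 2.45, SE 0.43, adjusted p = 0.000747 from limma). With a pseudocount of 0.1 in place of 1 the difference came to 4.10, since Ptgs2 is close to 0 in ovary.

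Of the synthases, Ptges was 31.4, 40.4 and 32.9 FPKM in ovaries in estrus and 43.1, 49.4 and 36.3 in diestrus. In uterus it was 1.65, 3.24 and 16.4 in estrus and 4.19, 1.97 and 3.96 in diestrus. The organs did not overlap, and uterus fell short of ovary by a log2 difference of -2.99 (SE 0.38, adjusted p = 6.835e-05 from limma). The highest uterine value belongs to estrus replicate 3, the library with oviduct markers, and without estrus replicate 3 of both organs the difference was -3.40. Ptgds was also lower in uterus (log2 difference -1.70, SE 0.41, adjusted p = 0.00553 from limma), with 0.38 to 6.21 FPKM there and 4.73 to 13.99 in ovary. Ptgis did not pass the test, at 8.41 to 57.0 FPKM in uterus and 26.3 to 39.5 in ovary (log2 difference -0.79, SE 0.37, adjusted p = 0.113).

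The receptor Ptgfr showed the largest contrast of the members. In ovary its FPKM was 20.1, 20.2 and 33.4 in estrus and 37.6, 49.4 and 46.3 in diestrus, and in uterus 0.99, 1.23, 0.50 and 1.11, 1.54, 1.88. All ovaries were far above all uteri (log2 difference -3.95, SE 0.17, adjusted p = 9.515e-09 from limma). Ptger4 ran the other way, from 9.73 to 38.3 FPKM in uterus and from 1.26 to 5.61 in ovary (log2 difference 2.75, SE 0.35, adjusted p = 6.769e-05). Ptger3 was likewise higher in uterus (log2 difference 2.28, SE 0.48, adjusted p = 0.00235), with 1.01 FPKM in estrus replicate 3, 6.36 to 21.1 in the other uteri, and 0.51 to 1.73 in ovary. Without estrus replicate 3 of both organs the difference of Ptger3 was 2.83. Ptger2 did not pass (log2 difference 0.25, SE 0.41, adjusted p = 0.660).

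Hpgd, with 7.10 to 71.8 FPKM in uterus and 24.5 to 50.03 in ovary, did not pass the test either (log2 difference -1.01, SE 0.47, adjusted p = 0.111). Leaving out a single library changed this and the result for Ptgis: without uterus estrus replicate 1, which held the highest uterine value of both genes, Hpgd (-1.45, adjusted p = 0.00230) and Ptgis (-1.14, adjusted p = 0.00297) were called as higher in ovary, and 9 members were called in all. That library also had the highest uterine smooth muscle sum (5768 against 1143 to 3588) and the highest macrophage sum, and the part of these in the result was not tested. Scaling by the median ratio to all genes moved the median of all genes by 0.17 between these organs and left the same 7 members called. The fit of all 90 libraries, with uterus estrus replicate 1 kept in, called Hpgd as well.

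**Figure D2:**
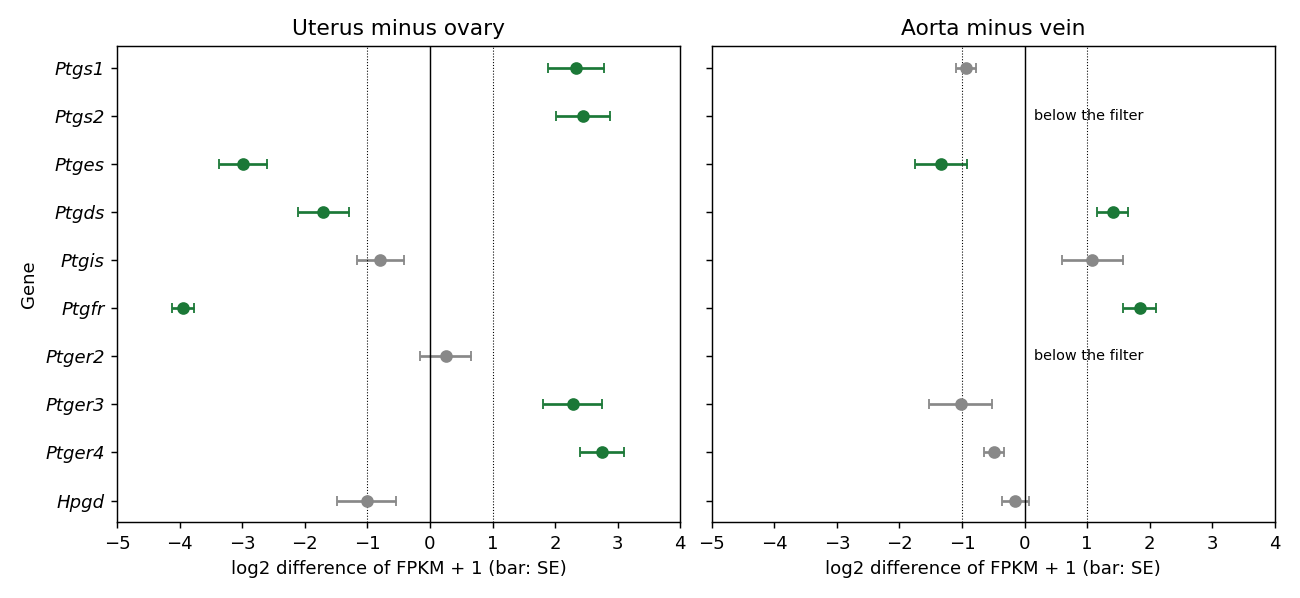
Log2 difference of FPKM + 1 (points) with its standard error (bars) for each member between uterus and ovary (left) and aorta and vein (right), 6 libraries per tissue. Green points passed both limits, the dotted lines at -1 and 1 are the fold limit, and Ptgfr lies at -3.95 on the left and 1.84 on the right.

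Of 22 other genes of the pathway, listed with earlier results in view, 18 were tested between uterus and ovary. Of these, 4 were called as higher in uterus and 3 as higher in ovary, where 8.66% and 10.4% of all genes were called. The median log2 difference of the 18 was 0.04, against -0.15 over all genes. Of the 4 phospholipases listed, enzymes that release fatty acids such as arachidonic acid from membranes, 2 were called as higher in uterus, while Pla2g5 (log2 difference -1.31, adjusted p = 0.0909 from limma) and Pla2g6 (-0.92, adjusted p = 0.0165) had lower means there and were not called. Pla2g4a, the cytosolic enzyme, averaged 65.9 ± 70.5 FPKM (SD, n = 6) in uterus and 9.27 ± 2.55 in ovary (log2 difference 2.29, SE 0.44, adjusted p = 0.00138 from limma), and Pla2g10, a secreted one, was 0.27 to 53.4 FPKM in uterus and at most 0.27 in ovary (log2 difference 2.78, adjusted p = 0.00848). The uterine mean of Pla2g4a was drawn up by diestrus replicate 2 at 208 FPKM, against 17.96 to 47.22 in the other uteri. Pla2g10 was 53.4 and 50.5 FPKM in uterus diestrus replicates 2 and 3, and 0.27 to 4.43 in the others. The prostaglandin exporter Abcc4 (log2 difference 1.36, adjusted p = 0.000284) and Hpgds, the hematopoietic prostaglandin D2 synthase (1.12, adjusted p = 0.0418), were the other 2 called as higher in uterus. Hpgds was 32.3 FPKM in uterus estrus replicate 3, the library with oviduct markers, and 2.91 to 9.72 in the other uteri. Ovary held 1.21 to 8.31 FPKM of Hpgds, with the highest value also in estrus replicate 3. The genes higher in ovary were Akr1c18 (log2 difference -5.11, adjusted p = 9.177e-05), which reduces progesterone at luteal regression and has prostaglandin F synthase activity, Prxl2b (-1.85, adjusted p = 4.352e-06), a prostamide and prostaglandin F synthase, and Akr1b3 (-1.11, adjusted p = 0.00228), an aldose reductase with prostaglandin F synthase activity. The difference of Akr1b3 lay close to the fold limit. In uterus Akr1b3 was 31.09 and 40.25 FPKM in estrus replicates 1 and 3, both low in uterine markers, and 48.78 to 86.93 in the others. Calls of the other pathway genes with single libraries left out are not given here. By mean FPKM, the most abundant of the list were Ptges3 (115 FPKM), Pla2g4a and Akr1b3 (58.3) in uterus, and Akr1b3 (121), Akr1c18 (107) and Ptges3 (98.6) in ovary.

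Aorta and vein were compared to see how the 2 kinds of vessel differ in prostanoid genes. Ptgfr and Ptgds were higher in aorta and Ptges was higher in vein, so that 3 of the 8 members tested were called, where 11.0% of the 13225 genes tested were called, 1.84% as higher in aorta and 9.12% as higher in vein. Ptgs2 and Ptger2 had means under 1 FPKM and were not tested.

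Ptgfr was 1.5, 6.71 and 8.60 FPKM in aorta in estrus and 4.97, 4.74 and 4.62 in diestrus, while vein held 0.81, 0.48, 0.47 and 0.67, 0.65, 0.55. The vessels did not overlap, and the lowest aorta was estrus replicate 1, the library with high smooth muscle markers (log2 difference 1.84, SE 0.27, adjusted p = 0.000255 from limma). Ptgds was 1.73 to 8.06 FPKM in aorta and 0.63 to 1.57 in vein, again without overlap (log2 difference 1.41, SE 0.25, adjusted p = 0.00116). Heart was among the leading tissues of Ptgds, and the summed FPKM of 4 markers of cardiomyocytes was 157 to 1824 in aorta and 1.8 to 9.3 in vein, whose part in this result was not tested. Ptges was 3.22 to 14.9 FPKM in aorta and 7.11 to 35.3 in vein (log2 difference -1.34, SE 0.41, adjusted p = 0.0310). These ranges overlap, and the call of Ptges was lost when any one of 7 libraries was left out, with adjusted p of 0.0521 without aorta diestrus replicate 3, 0.0617 without vein diestrus replicate 3, 0.0621 without vein estrus replicate 2, 0.0676 without aorta diestrus replicate 2, 0.0714 without aorta estrus replicate 2, 0.0717 without vein estrus replicate 3 and 0.0725 without vein diestrus replicate 1. Median-ratio scaling, which moved the median of all genes by 0.11, also ended it (adjusted p = 0.0542).

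Ptgs1 was 9.57 to 22.2 FPKM in vein and 6.77 to 10.35 in aorta, so that the ranges met at 1 library each, and its log2 difference of -0.94 (SE 0.16, adjusted p = 0.00110 from limma) stayed under the fold limit. Ptger4 likewise was under that limit (-0.49, SE 0.16, adjusted p = 0.0398). Ptgis, in spite of its role in vessels, did not pass between them (log2 difference 1.08, SE 0.49, adjusted p = 0.130). Its mean is drawn up by aorta estrus replicate 1, and without it the 39.1 to 61.9 FPKM of aorta stood beside 19.9 to 56.7 in vein, a log2 difference of 0.59 that passed the adjusted p (0.0482) and not the fold limit. Ptger3 was higher in vein on average (41.8 against 22.7 FPKM) with wide spread (log2 difference -1.02, SE 0.50, adjusted p = 0.166, and -0.55 without aorta estrus replicate 1). Blocking on replicate number, Ptger3 was called as higher in vein (adjusted p = 0.0371), and the fit of all 90 libraries called Ptger3 (adjusted p = 0.00806) and Ptgis (adjusted p = 0.0222). The share of all genes called in these fits is not given here, so these calls are not read as a result about the members. Hpgd differed by -0.15 (SE 0.22, adjusted p = 0.684). Without aorta estrus replicate 1, the same 3 members were called as with it.

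The adipocyte sums were 273 to 2590 in aorta and 1685 to 4754 in vein, and brown adipocyte sums 617 to 8093 and 953 to 2352. All 5 adipocyte markers were above a mean of 1 FPKM in both vessels, and Ptges and Ptger3 were highest in WAT of all tissues, and the part of fat in the vessel values was not tested. Of the other pathway genes, 16 were tested, with a median log2 difference of -0.11, equal to that over all genes at -0.11. Among them 1 was called as higher in aorta and 1 as higher in vein, where 1.84% and 9.12% of all genes were called. Pla2g5, a secreted phospholipase, was called as higher in aorta (log2 difference 1.06, SE 0.21, adjusted p = 0.00270 from limma), and Slco2a1, the prostaglandin uptake transporter, as higher in vein (-1.20, SE 0.17, adjusted p = 0.000193). Pla2g5 was low, at 1.75 to 4.98 FPKM in aorta and 0.42 to 1.34 in vein, and its difference lay close to the fold limit. Slco2a1 was 6.41 to 9.38 FPKM in aorta and 10.4 to 29.1 in vein. The calls of both genes with single libraries left out are not given here. The most abundant of the list were Cbr1 (83.2 FPKM), a carbonyl reductase, Akr1b3 (72.4) and Ptgr2 (66.8), a prostaglandin reductase, in aorta, and Akr1b3 (103), Cbr1 (72.1) and Ptges3 (59.0) in vein. For Ptgr2, 32.0% of the exonic bases overlap an RNA gene on the opposite strand.

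**Figure D3:**
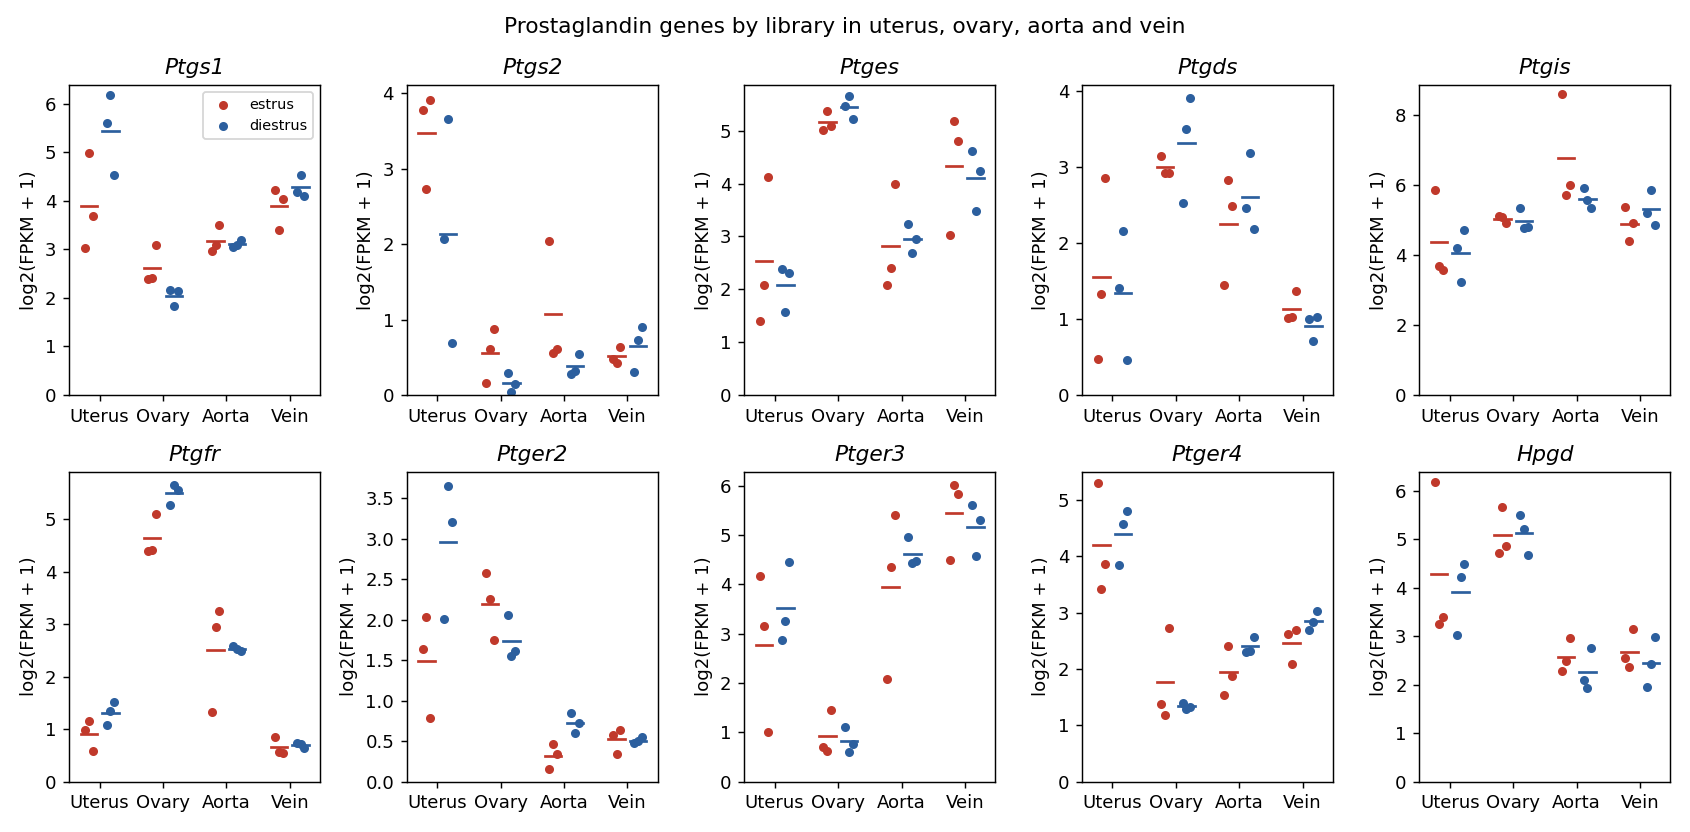
Log2(FPKM + 1) of each member in every library of uterus, ovary, aorta and vein, with estrus in red, diestrus in blue and short lines for the mean of 3 libraries. Ptgfr separates ovary from the other tissues, and single libraries such as aorta estrus replicate 1 for Ptgis stand far from their group.

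Estrus and diestrus were compared within each tissue to ask whether the cycle moves these genes. Of 150 pairs of a member and a tissue, 100 had a mean of at least 1 FPKM and were tested with limma within the tissue, and 0 were called, where 0.00108% of all genes tested over the 15 tissues were called (2 of 185469). At an unadjusted p under 0.05 there were 9 of the 100, against 7.84% of all genes. Fitting all 90 libraries at once, which shares one estimate of the spread among the tissues, called 4 (Hpgd in duodenum, and Ptgs1, Ptgs2 and Ptger2 in uterus), where 1.66% of all genes were called in that fit. With 3 mice against 3, an exact permutation test of a single gene cannot go below p = 0.1.

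A full separation of the 3 libraries in estrus from the 3 in diestrus was found in 8 of the 100 pairs (8.0%), where 15.0% of all genes did so. Estrus was above in 6 and below in 2, against 5.66% and 9.31% of all genes. The share of the members lay below that of all genes. The 8 pairs are Ptgs1 in hypothalamus, ovary and WAT, Ptgis in liver, Ptger4 in spleen and Hpgd in duodenum with estrus above, and Ptgfr in ovary and Ptger4 in stomach with estrus below. In those tissues, the share of all genes that separated in the same direction was 9.96% in hypothalamus, 8.13% in ovary, 9.25% in WAT, 4.48% in liver, 3.09% in spleen and 4.51% in duodenum with estrus above, and 5.58% in ovary and 12.0% in stomach with estrus below.

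**Figure D4:**
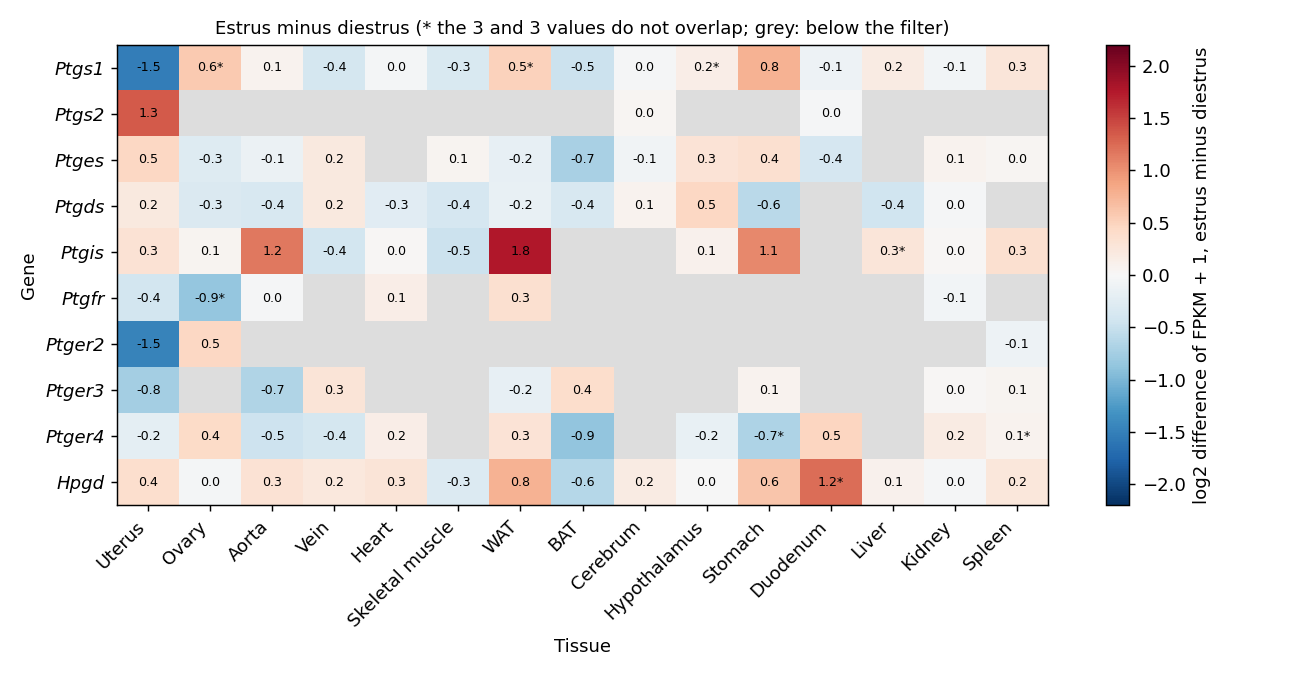
Log2 difference of FPKM + 1 between estrus and diestrus (colour and number, red where estrus is higher) for the 10 members (rows) in 15 tissues (columns), with 3 libraries per phase. Asterisks mark the 8 pairs whose 3 and 3 values do not overlap, grey cells lie below a mean of 1 FPKM, and none of the differences passed the adjusted test.

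In uterus, Ptgs1 and Ptger2 had lower means in estrus and Ptgs2 a higher one, without passing the test. Ptgs1 averaged 16.6 ± 12.4 FPKM (SD, n = 3) in estrus and 46.8 ± 24.5 in diestrus (log2 difference -1.53, SE 0.60, adjusted p = 0.897 from limma), and estrus replicate 2 at 30.6 lay above diestrus replicate 3 at 22.0. Ptger2 was 2.10, 3.10 and 0.72 FPKM in estrus, with 3.03, 11.6 and 8.22 in diestrus (log2 difference -1.47, SE 0.52, adjusted p = 0.897). Ptgs2 had a log2 difference of 1.34 (SE 0.74, adjusted p = 0.897), with diestrus replicate 2 at 11.6 FPKM inside the estrus range, and 0.62 without diestrus replicate 3. Across all genes in uterus 7.91% did not overlap between the phases, and none of the members did so. In the fit of all 90 libraries, where these 3 were called (adjusted p = 0.00164 for Ptgs1, 1.57e-07 for Ptger2 and 0.00228 for Ptgs2), 6.65% of the genes in uterus were called. Ptgs2 and Ptger2 averaged at least 1 FPKM in only 3 tissues each. Their spread in that fit therefore came largely from libraries where they are low, and these p-values do not measure the spread within uterus.

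The difference in phase response between uterus and ovary was tested by an interaction term, and 0 of the 10 members were called, with 0 of 14035 genes called in all. At an unadjusted p under 0.05 there were 2, Ptgs1 (-2.11, SE 0.70, adjusted p = 0.992 from limma) and Ptger2 (-1.92, SE 0.62, adjusted p = 0.992), against 3.77% of all genes. Ptgs1 averaged higher in estrus in ovary and lower in uterus. The fit of all 90 libraries, whose spread is not that of these organs alone, called both, where 2.24% of all genes were called in it. In uterus, the libraries of estrus replicates 1 and 3 also differed in the list of uterine epithelium and stroma genes, with sums of 86.9 and 82.5 against 477 to 736 in the other 4, and endothelial sums were 28.4 to 89.3 in estrus and 75.0 to 206 in diestrus. Their part in the values of Ptgs1 and Ptger2 was not tested. Without uterus estrus replicate 1 the phase difference in uterus was -1.09 for Ptgs1 and -1.55 for Ptger2.

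In ovary, Ptgfr was the member with the lowest p. Its 20.1, 20.2 and 33.4 FPKM in estrus lay below the 37.6, 49.4 and 46.3 of diestrus (log2 difference -0.86, SE 0.21, adjusted p = 0.747 from limma), where 5.58% of the genes in ovary had estrus below without overlap. The sums of the markers of luteal cells were 7101, 5656 and 6735 in estrus and 5713, 8760 and 9131 in diestrus, and the part of luteal tissue in the Ptgfr values was not tested. Estrus replicate 3, with oviduct markers, had the highest Ptgfr of its phase, and without it the difference was -1.09 (adjusted p = 0.0652). Ptgs1 in ovary was 4.20, 4.33 and 7.46 FPKM in estrus, with 3.47, 2.54 and 3.41 in diestrus (log2 difference 0.58, SE 0.22, adjusted p = 0.828), and the value that stands out was again estrus replicate 3, without which the difference was 0.35 (adjusted p = 0.263). Ptgs2 in ovary stayed at 0.83 FPKM or lower in all 6 libraries and was below the filter, and genes of the periovulatory follicle summed to 13.9 to 22.2 in estrus and 7.74 to 13.1 in diestrus.

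In the vessels no member separated the phases among those tested, while 11.9% of all genes did so in aorta and 18.2% in vein. The widest mean difference in aorta was that of Ptgis (log2 difference 1.16, SE 0.76, adjusted p = 0.933 from limma), with 381, 51.1 and 61.9 FPKM in estrus, with 59.3, 46.0 and 39.1 in diestrus. The other 2 estrus values lay within or just above the diestrus range, and without estrus replicate 1 the difference of Ptgis was 0.24 (adjusted p = 0.617). In vein Ptgis differed by -0.41 (SE 0.32, adjusted p = 0.556), and Ptgs1 by -0.39 (SE 0.23, adjusted p = 0.463). The interaction of vessel and phase called 0 of the 8 members, with 0 of 13225 genes called, and 0 members had an unadjusted p under 0.05, against 3.27% of all genes.

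In several tissues 1 library was highest both in Ptgis and in smooth muscle markers, a pattern singled out after the values were seen. In 6 of the 12 tissues where Ptgis passed the filter, the library with the highest summed FPKM of 7 smooth muscle markers also had the highest Ptgis, where this held for 23.5% of all genes and tissues. These were aorta, vein, uterus, stomach, spleen and WAT. It did not hold in heart, where estrus replicate 3 had the highest Ptgis (14.5 FPKM) at the lowest sum (1052), or in ovary, where estrus replicate 3 had the highest sum (1002) and 28.8 FPKM of Ptgis. The sums were 1052 to 1178 in heart and 1143 to 1296 in skeletal muscle, and which cells gave them there was not tested. In WAT, estrus replicate 1 had a smooth muscle sum of 3028 against 131 to 309 in the others, and 45.8 FPKM of Ptgis against 1.99 to 11.4. The phase difference of Ptgis in WAT of 1.75 (SE 0.71, adjusted p = 0.791 from limma) was 0.93 without it. For Ptgs1 the highest library was the same in 6 of 15 tissues, for Hpgd in 4 of 15, for Ptger4 in 4 of 12 and for Ptges in 0 of 13.

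**Figure D5:**
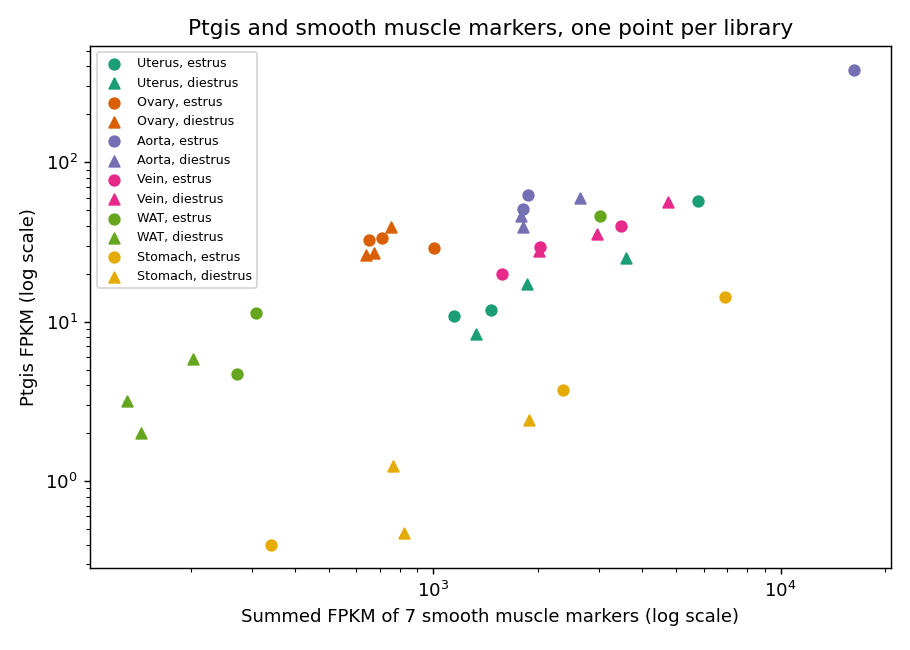
Ptgis FPKM against the summed FPKM of 7 smooth muscle markers, both on log scales, with 1 point per library in 6 tissues (colours), circles for estrus and triangles for diestrus. Aorta estrus replicate 1, at 16275 and 381, lies at the top right, and ovary holds 26.3 to 39.5 FPKM of Ptgis at sums of 641 to 1002.

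Outside these tissues, Hpgd in duodenum had the largest difference between phases that did not overlap. It was 124, 227 and 210 FPKM in estrus, with 65.2, 88.0 and 78.6 in diestrus (log2 difference 1.23, SE 0.27, adjusted p = 0.368 from limma), where 4.51% of the genes in duodenum had estrus above without overlap. The lowest estrus value came from replicate 1, the library with gastric markers, and without it the difference was 1.497 (adjusted p = 0.0717). The sums of the markers of enterocytes were 2355, 10674 and 11369 in estrus and 4551 to 6632 in diestrus, and their part in the result was not tested. Median-ratio scaling moved the median of all genes in duodenum by 0.17 and gave Hpgd a difference of 1.42 (adjusted p = 0.432). The fit of all 90 libraries called Hpgd in duodenum (adjusted p = 0.0404), where 4.37% of the genes in duodenum were called.

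The other pairs without overlap were small or rested on few libraries. Ptgs1 differed by 0.15 (SE 0.09) in hypothalamus and by 0.51 (SE 0.21) in WAT, where estrus replicate 1, the library rich in smooth muscle markers, held 8.11 FPKM against 3.61 to 5.37 in the others. Without that library the difference of Ptgs1 in WAT was 0.28. Ptgis in liver was 1.18, 1.27 and 2.30 FPKM in estrus, with 1.15, 1.14 and 1.04 in diestrus, close to the filter. Ptger4 in stomach was 5.44, 5.09 and 3.95 FPKM in estrus, with 5.60, 9.84 and 9.97 in diestrus, so that diestrus replicate 1 was next to the estrus values (log2 difference -0.67, SE 0.24, adjusted p = 0.671 from limma). The 22 other pathway genes gave 229 tested pairs of a gene and a tissue, of which 0 were called and 21 (9.17%) had an unadjusted p under 0.05, against 7.84% of all genes.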

How the data were processed

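RNA of 15 tissues from female mice in estrus or diestrus was sequenced in 90 libraries (TruSeq RNA v2 kit, no strand information; 3 mice per phase). Reads had been filtered with SOAPnuke, aligned with Bowtie2 2.2.5 to GRCm38 (patch release p5) and quantified with RSEM 1.2.8, tool versions as in the submitters' processing notes, and the authors deposited FPKM per gene. Counts were not used, so depth is known only in relative terms, and exact intervals for counting error cannot be given. The age of 10 weeks is that of the labels, and the methods give another.

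Symbols were matched by Entrez identifier to RefSeq (GRCm38.p6), 20265 of 20414 genes. Tests used limma 3.58.1 (R 4.3.3) with an intensity trend on log2(FPKM + 1), leaving out genes whose mean over the tested libraries was below 1 FPKM, and Benjamini-Hochberg adjustment within each test. This scale understates the change of low genes. A call had to reach 1 in the size of the log2 difference and pass 0.05 after adjustment. The study's DEGSeq test needs counts and was not run. The fits were tested on simulated data with 200 changed genes. Permutation tests, counts and plots used Python 3.11.15, numpy 2.4.6, pandas 2.3.3, scipy 1.17.1 and matplotlib 3.10.9. Groups came from the sample labels. Alternatives were another pseudocount (0.1), no filter, median-ratio scaling, one fit of all 90 libraries, a replicate block, no fold limit and single libraries left out. The members and lists were chosen with earlier results of these data known. Named were all members, other pathway genes called by a test or among the 3 highest in uterus, ovary, aorta or vein, and the 3 genes most like each member. Of 23 other pathway genes listed, 22 matched the table. Marker lists are given as sums only for lists that bear on a result. Promoter sequences are from RefSeq (GRCm38.p6), matched by symbol for 9 of 10 members, with none for Ptgis.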

Additional observations from a re-analysis of the deposited data

Results flagged for a closer look

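Ptger4 separated the phases in opposite directions in 2 tissues, with all 3 estrus values above all 3 diestrus values in spleen and all below in stomach. In spleen it was 12.66, 12.58 and 12.69 FPKM in estrus, with 12.57, 11.88 and 11.48 in diestrus, a log2 difference of 0.0731, and in stomach the log2 difference was -0.67. The difference between the tissues was not tested, and neither tissue's own difference passed limma (adjusted p = 0.931 in spleen and 0.671 in stomach).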

How the results depend on the processing

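Between uterus and ovary 7 members were called under every alternative except the fit of all 90 libraries (8, with Hpgd) and without uterus estrus replicate 1 (9), so that the counts with single libraries left out ran from 7 to 9. Between aorta and vein, with 3 called, the count was 5 without the fold limit and 5 in the fit of all 90 libraries, and 2 to 4 with single libraries left out, where Ptges dropped out or Ptgs1 joined. The shares of all genes called between tissues under the alternatives are not given here. Estrus against diestrus gave 0 called members under all alternatives but the fit of all 90 libraries (4), and so did the difference in phase response between uterus and ovary (2 in that fit). The count of neighbouring tissues that differed, 14, rose to 25 with median-ratio scaling. It was 0 without any one replicate, where 4 libraries against 4 cannot give a p below 0.0286, and 0 in the paired sign-flip test with the replicate number as a block, where the smallest p is 0.0312 and 140 pairs are adjusted for.

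The labels give both phases and all tissues the same replicate numbers. Between phases the numbers name different mice. Between tissues the study took all organs from 3 mice per phase, but the labels do not say that a number marks a mouse, and the deviations of same-numbered libraries from their group means correlated at r of 0.07 to 0.29 between uterus and ovary and of -0.01 to 0.45 between aorta and vein, not above 0.1 in every pair, so the numbers were not taken as pairs. With the replicate block, 0 members were called between the phases, 7 between uterus and ovary and 4 between aorta and vein, where Ptger3 joined the 3. Among the single differences refitted under the alternatives (those between tissues, and those between phases that separated, had an unadjusted p under 0.05 or were printed for the vessels and for Ptgs2 in uterus), Ptger2 between uterus and ovary was the one that changed sign, with values of -0.0089 (without uterus diestrus replicate 2) to 0.5148 (without uterus estrus replicate 3) when single libraries were left out, and it was called in none. Without estrus replicate 3 of uterus and ovary, an alternative chosen after seeing the data, 7 members were called.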
